A study of Mus musculus with 4 samples.

Results

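Genes of the DNA damage response and of DNA repair were followed in spleens with B cell leukaemia and in wild type spleens. A list of 38 genes was taken by name, and 36 of them had a probe set whose only gene symbol was theirs, among 19297 genes measured. Xrcc2 and Rbbp8 were not analysed here. Where a gene had several probe sets (groups of probes summarised to 1 value), the brightest set on average was used.

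Spleen RNA of 4 mice of the 129Sv background was hybridised to Affymetrix whole-transcript arrays, 1 array per mouse. Both groups were RBP-J flox/flox, that is, both copies of the gene for the DNA-binding partner of Notch receptors were flanked by loxP sites. The 2 wild type mice were Ren1d+/+ and 80 and 81 days old, and their spleens weighed 0.12 g and 0.16 g. The 2 leukaemic mice were Ren1dcre/cre, with cre recombinase at both copies of the renin gene Ren1d. They were 107 and 93 days old (replicates 1 and 2), with spleens of 0.7 g and 0.47 g. Replicate 2 of the leukaemic group was male and the other 3 mice were female. Cre, age and spleen weight differed between all mice of one group and all mice of the other, so their parts in any difference cannot be told apart. Cre sits at the renin locus, and the cells in which it acted were not measured here.

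Cells repair a broken DNA double strand by homologous recombination, in which BRCA1, BARD1, PALB2 and BRCA2 load a recombinase onto single-stranded DNA, helped by relatives of that recombinase and by the RAD54 motor proteins. The Fanconi anaemia pathway recognises crosslinked strands, attaches ubiquitin to FANCD2 and FANCI, and hands the lesion to nucleases and to recombination. Mismatch repair corrects copying errors behind the fork, base excision repair removes damaged bases, and the kinases ATM and ATR signal breaks and stalled forks to CHK2 and CHK1. Precursor B cells divide rapidly and also cut their own antigen receptor genes, so both copying and breakage of DNA are part of their normal life.

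Promoter sequence is shown first. By the test described further on, 10 of the 36 genes (27.8%) rose in leukaemic spleen and 0 fell, against 1.43% and 1.03% of all genes. RefSeq promoters (assembly GRCm38.p6 of the C57BL/6J strain, 250 bases before to 50 after a transcription start) were found for 30 of the 36 genes, 33 promoters in all. Rad54b, Fancd2, Wrn, Exo1, Nbn and Rad50 had no entry in the table. Promoters were searched on both strands for an E2F type motif, spelled TTTGGCGC, TTTGCCGC, TTTCGCGC or TTTCCCGC. E2F factors are regulators of genes used in S phase. A match lay in 9 of the 33 promoters (27.3%), against 2.26% of all 32851 promoters of the table. The matching genes were Brca2, Bard1, Rad51c, Fancg, Msh3, Msh6, Chek2 and Topbp1, and of these only Msh6 passed that test. A match was thus held by 1 of 8 genes with a promoter that passed (12.5%) and by 7 of 22 that did not (31.8%). Of all genes with an entry 2.6% held one. The 6 genes whose match and flanks lay wholly before the start are shown 5′ to 3′ on the strand of the gene, with the match in capitals. In Msh3 a match on each strand overlaps the other, and both are in capitals.
Brca2: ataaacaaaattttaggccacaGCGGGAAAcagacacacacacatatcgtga
Bard1: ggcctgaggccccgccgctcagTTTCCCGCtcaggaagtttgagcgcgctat
Fancg: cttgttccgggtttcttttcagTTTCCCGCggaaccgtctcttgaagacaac
Msh3: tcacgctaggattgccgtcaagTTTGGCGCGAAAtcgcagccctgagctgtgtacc
Chek2: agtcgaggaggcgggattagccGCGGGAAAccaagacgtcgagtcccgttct
Topbp1: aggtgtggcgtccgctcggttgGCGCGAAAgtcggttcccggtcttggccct

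These stretches lie at chr5:150522431-150522482 on the plus strand for Brca2, chr1:71103152-71103203 on the minus strand for Bard1 and chr4:43010324-43010375 on the minus strand for Fancg. That of Msh3 lies at chr13:92355172-92355227 on the minus strand, that of Chek2 at chr5:110839809-110839860 on the plus strand and that of Topbp1 at chr9:103305176-103305227 on the plus strand. The first base of the match stands 168 bases before the start in Brca2, 209 in Bard1, 52 in Fancg, 202 in Msh3, 152 in Chek2 and 129 in Topbp1. A match is a run of letters and not a measured binding site.

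The CCAAT box, spelled CCAAT and bound by the factor NF-Y, was present in 18 of the 33 promoters (54.5%), against 37.4% of all promoters. Of the 10 genes that passed the expression test, 8 had a promoter in the table, and 6 of these 8 genes (75%) held the box: Brip1, Fancb, Fancm, Rad51b, Rad54l and Msh6. Of the uncalled genes with a promoter 10 of 22 held it (45.5%), as did 41.1% of all genes with an entry. The promoter of Brip1, the gene with the largest rise of the 36, held 3 copies, all on the strand opposite to the gene. It is shown with those of Fancm and Rad54l, which held 1 copy each on the strand of the gene.
Brip1: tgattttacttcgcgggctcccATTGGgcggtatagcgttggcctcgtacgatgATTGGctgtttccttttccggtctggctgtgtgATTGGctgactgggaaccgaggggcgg
Fancm: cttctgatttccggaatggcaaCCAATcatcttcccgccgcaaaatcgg
Rad54l: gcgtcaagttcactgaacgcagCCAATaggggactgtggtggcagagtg

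The capitals mark the box, read as ATTGG where it lies on the other strand. The stretches are chr11:86201201-86201314 on the minus strand for Brip1, chr12:65075518-65075566 on the plus strand for Fancm and chr4:116123714-116123762 on the minus strand for Rad54l. A further motif, TTTGAA, the cell cycle homology region of genes used in G2 and mitosis, was found in 2 of the 33 promoters (6.06%), in Bard1 and Rad51b, against 17.9% of all promoters. These shares are descriptions and were not tested.

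Expression values are on a log2 scale, and a gene was called where its adjusted p was under 0.05 in limma, a linear model fitted to all genes with Benjamini-Hochberg adjustment over all 19297. Differences are leukaemic minus wild type, and standard errors (SE) are those of that fit. Of the 36 genes 10 rose in leukaemic spleen and 0 fell, which is 27.8% of them called higher, against 1.43% of all genes; 1.03% of all genes were called lower and 2.46% in either direction. By unadjusted p under 0.05, 25 of the 36 were higher and 0 lower, against 10.0% and 10.6% of all genes. The median difference over the 36 was 0.51, beside -0.032 over all genes, and the differences ran from 0.0094 for Rad52 to 1.80 for Brip1. In 32 of the 36 both leukaemic arrays lay above both wild type arrays, an order found in 23.0% of all genes. The arrays of the 2 groups overlapped in Brca2, Rad52, Wrn and Atm.

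The differences of the 10 called genes moved by at most 1.25 times when 1 mouse was left out (Rad51b, without leukaemic replicate 1). Calls also changed in those fits. They have fewer residual degrees of freedom and another variance prior, so their counts of calls do not compare directly. In the same fits the differences of several uncalled genes ranged more widely relative to their size. They ran from 0.036 to 0.43 for Brca2, 0.061 to 0.54 for Chek2, 0.072 to 0.44 for Atm and 0.21 to 0.70 for Xrcc3. In log2 units the ranges of Brca2 and Atm were no wider than that of the called Rad51b, 0.85 to 1.27. For Brca2 the 2 ends were the fits without wild type replicate 1 and without wild type replicate 2. For Chek2, Atm and Xrcc3 they were the fits that left out a leukaemic mouse. With 2 mice per group, the shift on leaving 1 out is set by the gap between the 2 mice of its group. Calls favour genes whose gap is small against their difference. Smaller relative shifts in called genes were thus built into the selection and do not measure stability. Without wild type replicate 1 or without wild type replicate 2, the calls among the 36 genes were lost. The median difference of the 36 was then 0.55 and 0.64, beside -0.082 and 0.031 over all genes. Over all genes the calls then fell from 276 higher and 199 lower to 12 and 26, and to 0 and 0. Without leukaemic replicate 1 the called genes were Brip1, Chek1, Fancb and Rad54b (median difference 0.50). Without leukaemic replicate 2, the male, they were these 4 with Apex1, Exo1, Fancm and Rad51b (median difference 0.56). With quantile normalization 4 were called, again Brip1, Chek1, Fancb and Rad54b. With each array centred on its median, 11 of the 36 were called, and of all calls 70.4% were higher, against 58.1% as deposited. An exact permutation test of 2 against 2 mice cannot give a two-sided p below 0.333.

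**Figure D1:**
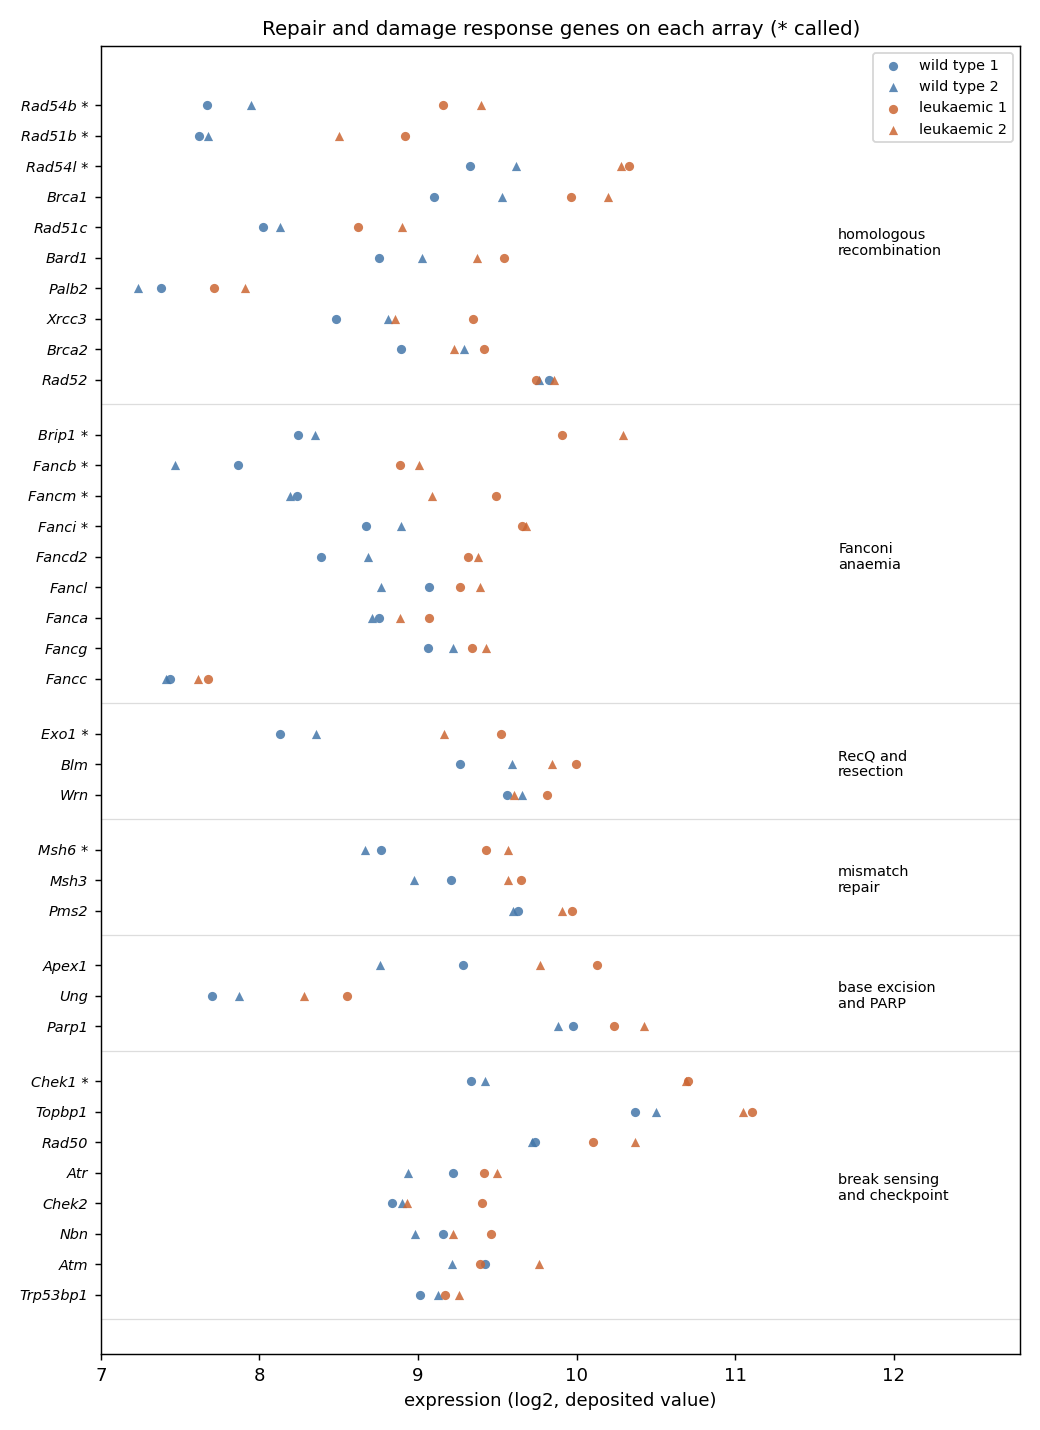
Log2 expression of the 36 repair and damage response genes on each of the 4 arrays (blue, wild type; orange, leukaemic; circles, replicate 1; triangles, replicate 2), grouped by role, with an asterisk on the 10 called genes. In 32 genes both orange symbols lie to the right of both blue ones, and the 4 exceptions are Brca2, Rad52, Wrn and Atm.

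Among 10 genes of homologous recombination 3 rose, and the other 7 did not pass (median difference 0.63). Rad54b, which encodes a motor protein of the RAD54 type (probe set 10503315), read 7.67 and 7.95 in the wild type mice and 9.16 and 9.40 in the leukaemic mice. Both leukaemic arrays stood more than 1 log2 unit above both wild type arrays, a difference of 1.47 (SE 0.17, adjusted p = 0.015), or 2.77-fold. Rad51b, a relative of the central recombinase that acts in a complex with Rad51c, read 7.62 and 7.67 in the wild type mice and 8.92 and 8.50 in the leukaemic mice (difference 1.06, SE 0.18, adjusted p = 0.037). Rad54l, the other RAD54 motor protein, read 9.33 and 9.62 in the wild type mice and 10.33 and 10.28 in the leukaemic mice. Its difference of 0.83 (SE 0.15, adjusted p = 0.0487) was the call nearest to the threshold.

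Brca1 and Rad51c came closest among the genes of recombination that did not pass. Brca1, a ubiquitin ligase subunit that promotes recombination, read 9.10 and 9.53 in the wild type mice and 9.97 and 10.20 in the leukaemic mice. The 2 wild type mice differed by 0.43, and the difference between groups of 0.77 (SE 0.19) had an adjusted p of 0.079. Rad51c read 8.02 and 8.13 in the wild type mice and 8.62 and 8.90 in the leukaemic mice (difference 0.68, SE 0.16, adjusted p = 0.070). Bard1, the partner of Brca1, differed by 0.57 (SE 0.16), and 2 further probe sets of that gene by 0.71 and 0.68 (SE 0.16 each). Palb2, which bridges Brca1 and Brca2, differed by 0.50 (SE 0.15), and Xrcc3, a further relative of the recombinase, by 0.46 (SE 0.21).

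Brca2 and Rad52 were the recombination genes whose arrays overlapped. Brca2, which loads the recombinase, read 8.89 and 9.29 in the wild type mice and 9.42 and 9.23 in the leukaemic mice, so the second leukaemic mouse lay below the second wild type mouse (difference 0.23, SE 0.18). Rad52, a strand annealing protein, read 9.82 and 9.76 in the wild type mice and 9.74 and 9.86 in the leukaemic mice. Its 4 arrays lay within 0.12 of each other, and its difference was 0.0094 (SE 0.14).

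In the Fanconi anaemia pathway 4 of 9 genes rose and the other 5 did not pass (median difference 0.81). All 9 had both leukaemic arrays above both wild type arrays, an order found in 23.0% of all genes. Brip1, a helicase that binds BRCA1 and is also known as FANCJ (probe set 10389395), read 8.24 and 8.35 in the wild type mice and 9.91 and 10.29 in the leukaemic mice. This was the largest rise of the 36, with a difference of 1.80 (SE 0.17, adjusted p = 0.0083), or 3.49-fold. Fancb, an X-linked subunit of the core ubiquitin ligase complex, read 7.86 and 7.47 in the wild type mice and 8.89 and 9.003 in the leukaemic mice (difference 1.28, SE 0.17, adjusted p = 0.024).

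Fancm, a DNA translocase that anchors the core complex at damaged forks, read 8.24 and 8.19 in the wild type mice and 9.49 and 9.09 in the leukaemic mice (difference 1.07, SE 0.17, adjusted p = 0.034). Fanci, which forms a clamp with Fancd2, read 8.67 and 8.89 in the wild type mice and 9.66 and 9.68 in the leukaemic mice (difference 0.89, SE 0.15, adjusted p = 0.036). Fancd2 itself read 8.39 and 8.68 in the wild type mice and 9.31 and 9.38 in the leukaemic mice. With a difference of 0.81 (SE 0.16) and an adjusted p of 0.052 it lay just outside the threshold, and it was called in 5 of 12 alternative analyses, median centring among them. Fancl, the ubiquitin ligase subunit of the core complex, read 9.07 and 8.77 in the wild type mice and 9.26 and 9.39 in the leukaemic mice (difference 0.41, SE 0.16). The core complex genes Fanca, Fancg and Fancc had differences of 0.25, 0.24 and 0.22 (SE 0.14, 0.14 and 0.13).

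The RecQ helicases and the end-resecting nuclease gave 1 rise among 3 genes measured. Exo1, an exonuclease that trims DNA ends and also serves mismatch repair, read 8.13 and 8.35 in the wild type mice and 9.52 and 9.17 in the leukaemic mice. Its difference was 1.11 (SE 0.18, adjusted p = 0.034). Blm, the Bloom syndrome helicase, read 9.26 and 9.59 in the wild type mice and 10.00 and 9.84 in the leukaemic mice (difference 0.49, SE 0.17, adjusted p = 0.16). Wrn, the Werner syndrome helicase, had overlapping arrays, at 9.56 and 9.65 in the wild type mice and 9.81 and 9.61 in the leukaemic mice (difference 0.10, SE 0.15).

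**Figure D2:**
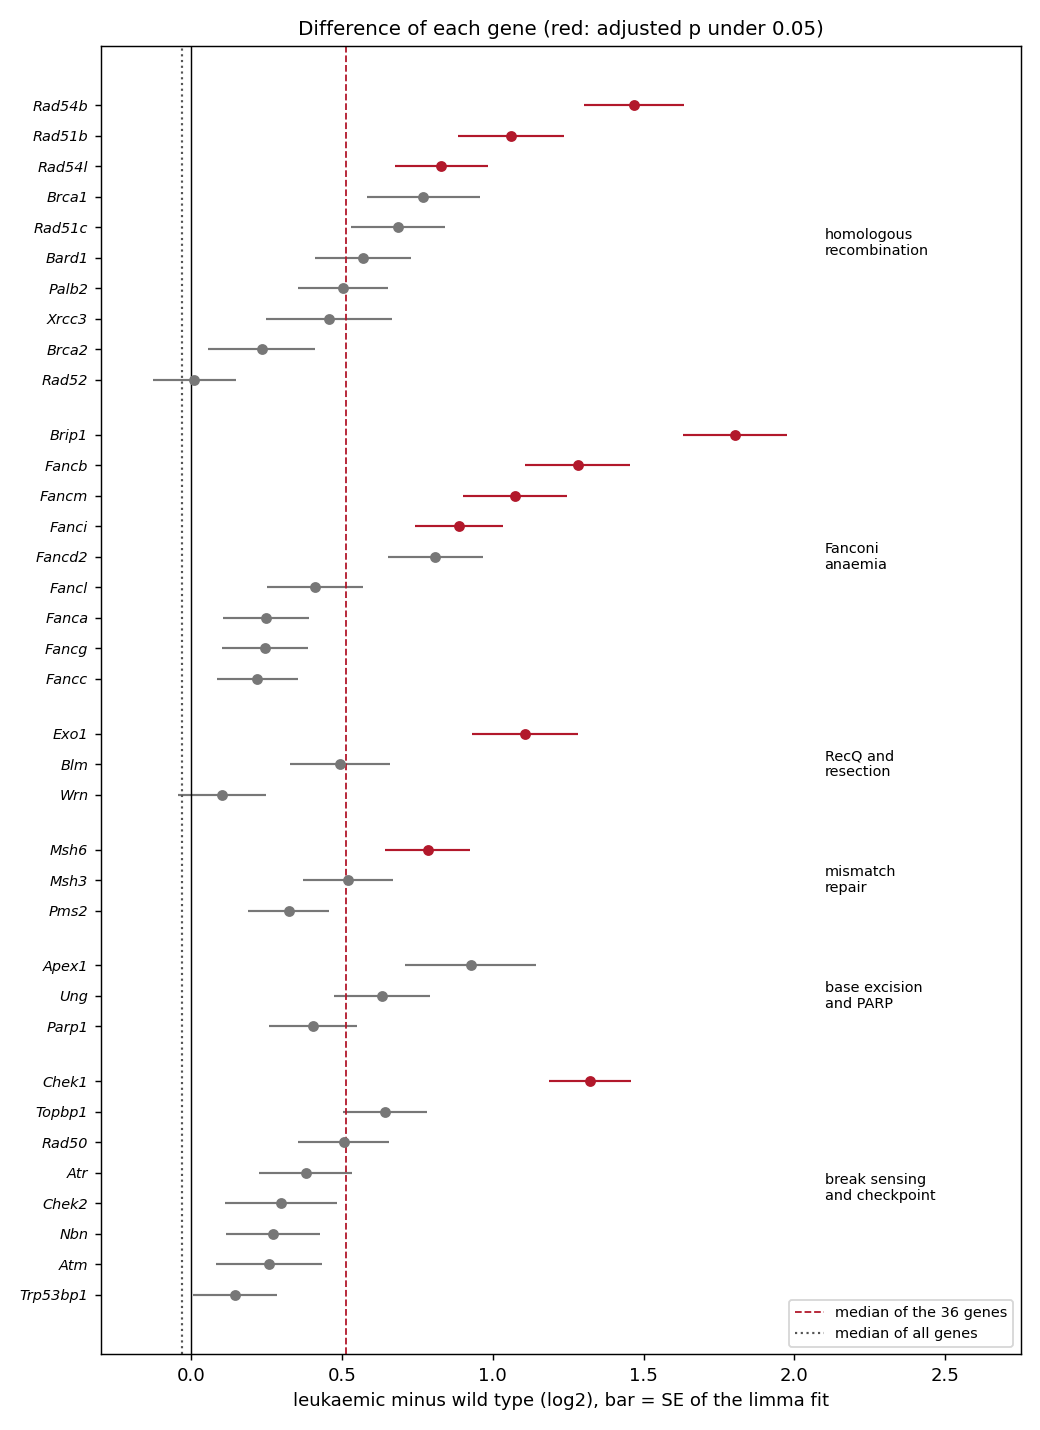
Difference between leukaemic and wild type spleens (log2) for each of the 36 genes, with the SE of the limma fit as bars and the 10 called genes in red. The dashed line is the median of the 36 genes, 0.51, and the dotted line that of all genes, -0.032. Called genes occur in 5 of the 6 role groups, and uncalled ones in each.

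Mismatch repair was represented by 3 genes, of which 1 rose. Msh6, which recognises single mismatched bases, read 8.77 and 8.67 in the wild type mice and 9.43 and 9.57 in the leukaemic mice (difference 0.78, SE 0.14, adjusted p = 0.045). Msh3, which recognises small loops, read 9.21 and 8.97 in the wild type mice and 9.65 and 9.57 in the leukaemic mice (difference 0.52, SE 0.15, adjusted p = 0.12). Pms2, an endonuclease subunit that acts after recognition, read 9.63 and 9.60 in the wild type mice and 9.97 and 9.91 in the leukaemic mice (difference 0.32, SE 0.13, adjusted p = 0.24). In all 3 both leukaemic arrays lay above both wild type arrays, as in 23.0% of all genes, and Msh6 was the gene whose difference passed.

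In base excision repair 0 of 3 genes passed (limma). All 3 were higher at an unadjusted p under 0.05, as were 10.0% of all genes. Apex1, the endonuclease that cuts at sites without a base, read 9.28 and 8.76 in the wild type mice and 10.13 and 9.77 in the leukaemic mice. Its wild type arrays lay 0.52 apart, the widest wild type gap of the 36, and the difference of 0.93 (SE 0.22) had an adjusted p of 0.074. Ung, the uracil glycosylase, which also processes uracil made by the antibody-diversifying deaminase, read 7.70 and 7.87 in the wild type mice and 8.55 and 8.28 in the leukaemic mice (difference 0.63, SE 0.16, adjusted p = 0.085). Parp1, a sensor of strand breaks that makes poly(ADP-ribose), differed by 0.40 (SE 0.15).

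Of 8 genes of break sensing and checkpoint signalling 1 rose, and the median difference of the 8 was 0.34. Chek1, the kinase CHK1 that slows the cell cycle when forks stall (probe set 10592201), read 9.33 and 9.42 in the wild type mice and 10.71 and 10.69 in the leukaemic mice. The 2 leukaemic mice agreed within 0.015, and the difference of 1.32 (SE 0.14, adjusted p = 0.011) corresponds to 2.50-fold. Topbp1, which activates the kinase ATR, read 10.37 and 10.50 in the wild type mice and 11.10 and 11.05 in the leukaemic mice (difference 0.64, SE 0.14, adjusted p = 0.064). Rad50, a subunit of the complex that holds broken ends together, read 9.74 and 9.72 in the wild type mice and 10.10 and 10.37 in the leukaemic mice (difference 0.51, SE 0.15, adjusted p = 0.13).

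The remaining sensing and checkpoint genes differed by less than 0.4. Atr, the kinase above Chek1, read 9.22 and 8.94 in the wild type mice and 9.41 and 9.50 in the leukaemic mice (difference 0.38, SE 0.16). Atm, the kinase that answers double-strand breaks, overlapped between groups, at 9.42 and 9.22 in the wild type mice and 9.39 and 9.76 in the leukaemic mice (difference 0.26, SE 0.18). Chek2, the kinase below Atm, read 8.84 and 8.90 in the wild type mice and 9.40 and 8.93 in the leukaemic mice (difference 0.30, SE 0.19), so the second leukaemic mouse lay 0.030 above the nearest wild type array. Without leukaemic replicate 1 the difference of Chek2 was 0.061, and without leukaemic replicate 2 it was 0.54. Nbn, a partner of Rad50, differed by 0.27 (SE 0.16) in its brighter probe set and by -0.023 (SE 0.14) in the other. Trp53bp1, which steers breaks away from recombination, differed by 0.15 (SE 0.14).

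The changes of related genes were set side by side, in pairs chosen with the values known, so no test is given. The change of Chek1 exceeded that of Chek2 by 1.02, by 0.79 in leukaemic replicate 1 and 1.25 in replicate 2. Rad54b exceeded Rad54l by 0.64, with 0.49 and 0.79 in the 2 leukaemic mice. Brca1 exceeded Brca2 by 0.54, with 0.33 and 0.74. For Rad51b over Rad51c the excess was 0.38 on average, 0.73 in replicate 1 and 0.027 in replicate 2. Fanci and Fancd2, which act as a pair, differed in their change by 0.077, and Atr and Atm by 0.12.

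**Figure D3:**
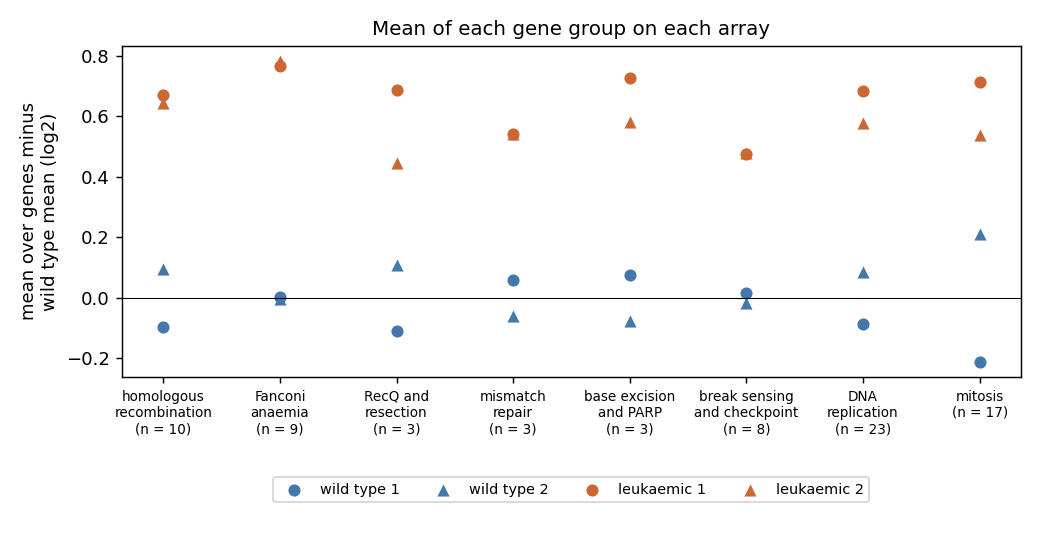
Mean log2 expression over the genes of each role group, and over lists of DNA replication and mitosis genes, on each array, relative to the mean of the 2 wild type arrays. The leukaemic arrays stand 0.45 to 0.78 above the wild type mean in the 6 role groups, and the wild type mice lie apart by 0.42 in the mitosis list.

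The role groups had similar means in both leukaemic mice. Relative to the wild type mean, leukaemic replicates 1 and 2 stood 0.67 and 0.65 higher over the recombination genes, 0.77 and 0.78 over the Fanconi genes and 0.54 and 0.54 over mismatch repair. Over the break sensing and checkpoint genes both stood 0.48 higher. The 2 mice were further apart over the RecQ and resection genes (0.69 and 0.45) and over base excision genes (0.73 and 0.58), lists of 3 genes each. Wild type replicate 2 stood 0.19 above replicate 1 over the recombination genes, in 8 of 10 genes, and 0.15 below it over the base excision genes, while over the Fanconi genes the 2 mice had equal means within 0.01.

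Beyond the 36, other genes of the same pathways were examined as lists. Of 81 further genes 73 were measured, 4 rose and 0 fell (limma), and the median difference was 0.32. At an unadjusted p under 0.05, 35 of the 73 were higher and 1 lower. Of all genes 1.43% were called higher and 1.03% lower, and at an unadjusted p under 0.05 the shares were 10.0% and 10.6%. Those shares over all genes also stand beside the counts of each list below. In the list for crosslink repair 1 of 12 rose (median 0.27). That gene was Eme1, a subunit of a structure-specific nuclease, at 8.04 and 8.42 in the wild type mice and 9.30 and 9.47 in the leukaemic mice (difference 1.15, SE 0.18, adjusted p = 0.032). Among other checkpoint genes 2 of 13 rose (median 0.56). Clspn, the adaptor through which ATR reaches CHK1, rose by 1.02 (SE 0.18, adjusted p = 0.043), and Wee1, a kinase that holds back mitosis, by 0.82 (SE 0.14, adjusted p = 0.039).

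Of 14 other recombination genes 1 rose (median 0.56). This was Hells, a chromatin remodeller, at 8.83 and 8.51 in the wild type mice and 10.24 and 10.11 in the leukaemic mice (difference 1.51, SE 0.16, adjusted p = 0.013). In the remaining 3 lists no gene passed (limma). Other base excision genes gave 0 of 13 (median 0.12, 4 higher at an unadjusted p under 0.05), with Neil3, a glycosylase, at a difference of 0.95 (SE 0.20, adjusted p = 0.061). Nucleotide excision repair, which removes bulky damage, gave 0 of 12 (median 0.15, 4 higher at an unadjusted p under 0.05), with Ercc8 at 0.49 (SE 0.16). Of 11 targets of p53, Cdkn1a and Bax were not analysed here. Among the other 9 targets 0 passed (median 0.31, 3 higher at an unadjusted p under 0.05). The member of smallest p there was Gtse1, a protein of G2 phase, at 0.87 (SE 0.22, adjusted p = 0.083).

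**Figure D4:**
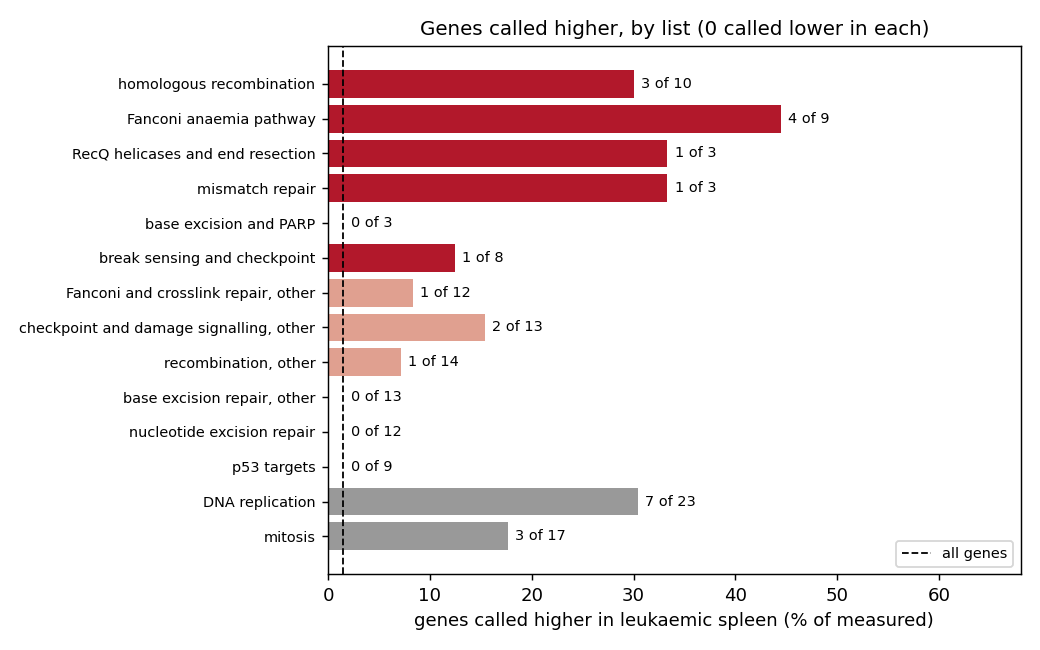
Percent of measured genes called higher in leukaemic spleen in the 6 role groups of the 36 genes (red), in lists of other repair and damage response genes (pink) and in lists of DNA replication and mitosis genes (grey), with the count beside each bar and the share of all genes, 1.43%, as a dashed line. The bar of the Fanconi genes stands for 4 of 9 and that of DNA replication for 7 of 23, while base excision, nucleotide excision and p53 target lists have 0.

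Proliferation genes were counted in the same fit, in which 1.43% of all genes were called higher and 1.03% lower. Of 23 DNA replication genes 7 rose and 0 fell (median difference 0.58), led by the primase subunit gene Prim1 (1.13, SE 0.15) and the polymerase gene Pole (1.09, SE 0.15). Of 17 mitosis genes 3 rose and 0 fell (median 0.55), led by the spindle checkpoint kinase genes Ttk (1.26, SE 0.17) and Bub1b (1.10, SE 0.17). At an unadjusted p under 0.05, 17 of the 23 replication and 9 of the 17 mitosis genes were higher, beside 25 of the 36 repair genes. Over all genes that share was 10.0%. Both leukaemic arrays lay above both wild type arrays in 21 of the replication, 13 of the mitosis and 32 of the repair genes. That order was found in 23.0% of all genes. The summed linear level of the replication list was 34736 and 39857 in the wild type mice and 56335 and 50975 in the leukaemic mice, and that of the mitosis list 27767 and 36094 against 48087 and 42813. The 36 repair genes summed to 18399 and 18975 in the wild type mice and to 28623 and 28347 in the leukaemic mice. Over the mitosis list wild type replicate 2 stood 0.42 above replicate 1 on average (log2), and over the 36 repair genes 0.040 above it. The part of proliferation in the rise of the repair genes was not tested.

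Marker genes of several cell types also differed between the groups. In a bulk sample, a change in the number of cells of a type and a change in RNA per cell cannot be told apart. Of 8 precursor B cell markers 5 rose, and the median difference was 3.34. The smallest p values were those of the surrogate light chain genes Igll1 (5.47, SE 0.14) and Vpreb1 (3.36, SE 0.14). Summed linear levels of the 8 were 8619 and 7186 in the wild type mice and 21570 and 22665 in the leukaemic mice. These sums include Cd79a, the brightest of the 8 in wild type spleen. It read 12.54 and 12.28 there and 12.49 in both leukaemic mice, so the sums understate the rise of the called markers. Of the other lists, mature B cell, T cell, NK cell, neutrophil and dendritic cell markers had median differences of -0.99, -1.65, -1.33, -1.22 and -1.33. Calls there were 2 of 6, 4 of 7, 3 of 7, 3 of 9 and 5 of 7, all lower. Macrophage, erythroid, megakaryocyte, plasma cell and stroma lists had medians between -0.72 and -0.046, with 1 call each, lower, for the megakaryocyte (Gp9) and stroma (Ccl19) lists and 0 for the others. The part of these marker differences in those of the repair genes was not tested.

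Wild type replicate 2 carried transcripts of exocrine pancreas. The summed level of 10 pancreas genes was 36385 there and 1015 to 1108 on the other 3 arrays, and Cpa1, a pancreatic carboxypeptidase, read 12.86 against 6.74 to 6.79. Without that array the median difference of the 36 repair genes was 0.64 and 35 of the 36 differences were above 0, Rad52 being the exception at -0.023. Rbpj, the floxed gene, read 9.99 and 9.74 in the wild type mice and 9.78 and 9.18 in the leukaemic mice (difference -0.38, SE 0.22, adjusted p = 0.41). No source used here says whether these probe sets cover the floxed part, so they do not check the genotype.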

How the data were processed

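The deposited table holds the authors' log2 values of 23309 probe sets on each array. The submitters' processing notes name RMA, R 2.15.0 and limma 3.12.1, with settings not stated in any source used here. Array medians lay between 7.96 and 8.03. Precision is limited by the number of arrays. The platform annotation gave 20729 probe sets a single symbol. Samples were grouped by title, and replicates are individual mice per the series' design text.

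All probe sets with 1 symbol were fitted in R 4.3.3 by limma 3.58.1 (functions lmFit and eBayes, no covariate, no filter on dim sets, 2 residual and 4.83 prior degrees of freedom). The brightest set of each gene was then kept, with Benjamini-Hochberg adjustment over genes. On simulated data of the same number of genes (19297) and layout, 50 genes each were changed by 0.5, 1, 2 and 3 (log2). Of these 0%, 22%, 74% and 92% were recovered, and 0 unchanged genes were called. The simulation gave 94 calls in all, against 475 in the data, so its rates need not hold for the data. Genes and lists were chosen with earlier results of these data known. Named with array values are called genes and up to 2 uncalled genes of smallest p per role, with others by their difference. Array values of Brca2, Rad52, Atr, Atm and Chek2 fall outside this rule and were chosen after they were seen. Of other pathway and proliferation lists up to 2 called genes of largest change, or the gene of smallest p, are named. Motifs were searched with Python 3.11.15.
Alternatives covered normalization, a filter on dim genes, the variance prior, the probe set, a fit of all probe sets, a block for the replicate number and each mouse left out.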

Additional observations from a re-analysis of the deposited data

How the results depend on the processing

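With quantile normalization 168 genes were higher and 93 lower, and 4 of the 36 repair genes were called. A robust prior gave 501 and 473 (14 of the 36), and all probe sets in the fit 217 and 121 (8 of the 36). With the replicate number as a block, 785 genes were higher and 908 lower and 16 of the 36 were called. The numbers are not shown to pair the mice, as same-numbered arrays deviated from their group means with a correlation of -0.089 over genes. Leaving out 1 mouse at a time gave 0 to 450 genes higher, 0 to 593 lower, 0 to 8 of the 36 called higher and a median difference of 0.50 to 0.64. These fits keep 1 residual degree of freedom and assume that the lone mouse varies like the other group. The variance prior also changed, to 2.79 degrees of freedom where a wild type mouse was left out and to an infinite number where a leukaemic one was, so counts from these fits do not compare directly. The median was 0.58 with median centring. The sign turned for Rad52 with quantile normalization (-0.043) and without wild type replicate 2 (-0.023) or leukaemic replicate 2 (-0.048), for Nbn with its dimmer probe set (-0.023) and for Wrn without leukaemic replicate 1 (-0.00031). Over the fits without 1 mouse, Rad52 ranged from -0.048 to 0.067 and Wrn from -0.00031 to 0.20. The cause of these changes was not tested. In no alternative was any of the 36 called lower by limma. Each repair gene was counted under each of 12 alternatives. Of these results 375 kept direction and side of the threshold, 37 lost the call, 15 gained it and 5 changed sign. Only the 10 called genes could lose a call, so all 37 losses fall among the results of those 10.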
